A study of Mus musculus with 18 samples.

Results

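The genes described here are those of the stroma and the high endothelial venules of a lymph node, measured in mammary gland RNA. They were the 7 symbols Cxcl13, Ccl19, Cr2, Ltb, Glycam1, Madcam1 and Chst4, and a gene was counted as measured where a probe set was annotated to its symbol and to no other. By that rule 6 of the 7 were measured, of 18193 genes with a value in all. Cxcl13 had 2 probe sets and the other measured genes had 1 each. The single probe set listed for Ccl19, a chemokine of the T cell zone, carries 10 symbols, so no value is given for it.

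The samples were whole mammary glands of virgin female mice, either RonTK+/+ (wild type) or RonTK-/- (tyrosine kinase domain of the receptor Ron deleted), and no treatment was given. Glands were taken at 5, 6 or 7 weeks of age. The 18 arrays form 6 groups of 3, so that each genotype has 9 arrays. The labels do not say whether the 3 arrays of a group came from separate animals, so p-values measure only the spread between these arrays, which may be technical. The sources used here do not give the strain background, any pooling of animals, the gland pair taken or the handling of lymph nodes in the gland.

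Each deposited value is a ratio, with 1 as the array median. For 87.37% of probe sets it is a ratio to the median of the RonTK+/+ arrays, within a tolerance of 1e-04. No value is under 0.01, and the 103 values at 0.01 are treated as a floor. Levels cannot be compared between genes on this scale, and signal over background is not known. A ratio also cannot show whether a marker of the labelled tissue is present, only how it varies between arrays. Mst1r, the gene for Ron, ranged from 0.808 to 1.40 (median 1, n = 9) in RonTK+/+ and from 0.740 to 2.10 (median 1.30, n = 9) in RonTK-/-. Whether its probe sets lie in the deleted part is not given, so these values do not check the genotype labels.

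Lymph nodes are built by stromal cells that organise lymphocytes. Follicular stromal cells make the chemokine CXCL13, which draws B cells, and reticular cells of the T cell zone make CCL19, which draws T cells and dendritic cells. Lymphotoxin beta, made largely by lymphocytes, signals through the lymphotoxin beta receptor and NF-kappaB to keep these stromal programmes and the high endothelial venules in place. High endothelial venules are the vessels through which lymphocytes enter a node. They carry glycoproteins such as GLYCAM1 and MAdCAM-1, whose sugars are sulphated by enzymes that include CHST4. A mammary fat pad can hold a lymph node, and Glycam1 is also made by milk-secreting epithelium.

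The promoters of Ltb and Madcam1 are shown because they were the members whose promoter held the letters GGGACTTTCC, a consensus of NF-kappaB, which acts below the lymphotoxin beta receptor. The 300-base RefSeq windows (build GRCm38.p6, 250 bases before to 50 after the start) were searched on both strands. The 250 bases before the start are printed 5′ to 3′ on the strand of the gene, with the match, which lies on the opposite strand and so reads GGAAAGTCCC, in capitals. Ltb lies on the plus strand and its printed stretch is chr17:35194257-35194506. Madcam1 lies on the plus strand and its printed stretch is chr10:79664309-79664558.
Ltb: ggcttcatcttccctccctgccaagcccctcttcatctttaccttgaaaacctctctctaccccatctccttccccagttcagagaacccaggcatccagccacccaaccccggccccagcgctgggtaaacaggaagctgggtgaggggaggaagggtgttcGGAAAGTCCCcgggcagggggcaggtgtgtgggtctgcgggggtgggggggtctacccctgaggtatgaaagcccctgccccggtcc
Madcam1: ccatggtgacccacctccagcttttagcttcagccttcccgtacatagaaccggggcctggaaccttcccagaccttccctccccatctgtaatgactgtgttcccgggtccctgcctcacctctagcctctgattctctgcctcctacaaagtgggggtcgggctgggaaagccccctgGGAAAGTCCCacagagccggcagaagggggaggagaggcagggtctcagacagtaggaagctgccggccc
The matches begin at -87 from the start of Ltb and at -70 from that of Madcam1. The consensus letters were present in 39 of 27025 promoters of the same length (0.144%). A looser spelling, GGGNNNNNCC, which also covers every consensus match, was in 50.4% of promoters and in 5 of the 7 members, so it does not set the members apart. TATAAA was in 14.2% of promoters and, among the members, in Cxcl13. A match is a description of letters and not a bound site.

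The 18 arrays fell into 2 sets that crossed genotype and age. The sets were drawn from the mean of a list of B lymphocyte genes (15 of 16 measured), split at its largest gap, and not from the members. The 10 arrays with the higher means are called the upper set here, and lay between -0.33 and 0.83 (log2 of the ratio). The 8 arrays of the lower set lay between -2.06 and -1.90. The lower set held array 3 of RonTK+/+ at 5 weeks, array 1 at 6 weeks and arrays 1 and 3 at 7 weeks. From RonTK-/- it held array 2 at 5 weeks and all 3 arrays at 7 weeks. Each genotype thus had 4 arrays in the lower set and 5 in the upper, but all 3 RonTK-/- arrays at 6 weeks were upper and all 3 at 7 weeks were lower. The T lymphocyte list gave the same sets. These sets are a description of the arrays and not groups of the study, so no test was made between them.

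All 6 measured members were higher in every upper array than in any lower array. Over all genes, 786 of 18193 (4.32%) did not overlap in this direction, and 161 did not overlap in the other. For Ltb and Cr2, which lymphocytes themselves express, separation by sets drawn from B lymphocyte genes says nothing about stroma. In bulk tissue, fewer cells of a type and less RNA per cell cannot be told apart. Since 5 of the 9 RonTK+/+ arrays were upper, the RonTK+/+ median that defines a ratio of 1 was an upper array for each of the 6 members. The values of each member follow in the order array 1, 2 and 3 of each group.

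Cxcl13, the B cell chemokine of follicles, had ratios of 1, 2.05 and 0.378 (5 weeks), then 0.0954, 1.48 and 1.09 (6 weeks), then 0.0940, 1.21 and 0.118 (7 weeks) in RonTK+/+. In RonTK-/- they were 0.475, 0.195 and 1.21 (5 weeks), then 1.12, 1.52 and 1.48 (6 weeks), then 0.148, 0.159 and 0.103 (7 weeks). Each RonTK+/+ group therefore mixed high and low arrays, and its range overlapped that of RonTK-/- at every age. The upper median was 1.21 and the lower median 0.132. The sets came closest in a pair of 5-week arrays, RonTK-/- array 1 at 0.475 and RonTK+/+ array 3 at 0.378, a gap of 0.33 on the log2 scale. The largest gap of Cxcl13 itself was wider, 1.07 (log2) between 0.475 and 1, and leaves that RonTK-/- array with the lower arrays. Its 2 probe sets read 0.347 and 0.411 in that RonTK+/+ array and 0.459 and 0.491 in that RonTK-/- array. They differed in size on the lower arrays, where the latter probe set read 1.18 to 3.93 times the former (median 2.01), against 0.881 to 1.07 times on the upper arrays. The widest difference was 0.0481 against 0.189, in RonTK+/+ array 1 at 6 weeks.

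Cr2, complement receptor 2 of B cells and follicular dendritic cells, had ratios of 1, 2.11 and 0.116 (5 weeks), then 0.135, 1.76 and 1.18 (6 weeks), then 0.175, 1.49 and 0.140 (7 weeks) in RonTK+/+. In RonTK-/- they were 0.626, 0.179 and 1.34 (5 weeks), then 1.31, 1.80 and 1.65 (6 weeks), then 0.132, 0.137 and 0.126 (7 weeks). The RonTK-/- arrays at 7 weeks were the tightest group and lay just below the lowest RonTK+/+ array of that age. The lower median was 0.136 against an upper median of 1.41, and the sets were separated by 1.80 (log2).

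Ltb, the lymphotoxin beta subunit that lymphocytes display, had ratios of 1.16, 1.63 and 0.0637 (5 weeks), then 0.0857, 1.55 and 1 (6 weeks), then 0.116, 1.32 and 0.0970 (7 weeks) in RonTK+/+. In RonTK-/- they were 0.715, 0.0712 and 1.45 (5 weeks), then 1.29, 1.40 and 1.50 (6 weeks), then 0.0979, 0.130 and 0.0919 (7 weeks). No array lay between 0.130 and 0.715. The upper median was 1.36 and the lower median 0.0944, with the nearest arrays of the sets 5.51-fold apart.

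Glycam1, a mucin-like ligand of L-selectin, had ratios of 1.22, 1.54 and 0.0146 (5 weeks), then 0.01, 1.26 and 1.12 (6 weeks), then 0.0255, 1 and 0.01 (7 weeks) in RonTK+/+. In RonTK-/- they were 0.847, 0.0207 and 1.42 (5 weeks), then 1.22, 1.39 and 1.29 (6 weeks), then 0.01, 0.01 and 0.01 (7 weeks). The upper arrays spanned 0.847 to 1.54 and no lower array exceeded 0.0255. The nearest arrays of the sets were 33.1-fold apart, the widest gap of all 18193 genes. Since 5 of the 8 lower arrays read the floor of 0.01, folds to them have no measured size and depend on that floor.

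Madcam1, the addressin that binds the integrin alpha4 beta7, had a narrow range. Its ratios were 1.15, 1.30 and 0.687 (5 weeks), then 0.874, 1 and 1.09 (6 weeks), then 0.886, 1.14 and 0.738 (7 weeks) in RonTK+/+. In RonTK-/- they were 0.896, 0.850 and 0.998 (5 weeks), then 1.00, 1.08 and 1.08 (6 weeks), then 0.724, 0.655 and 0.821 (7 weeks). The upper median of 1.08 and the lower median of 0.779 differed 1.38-fold, and the sets were separated by only 0.016 (log2).

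Chst4, a sulphotransferase of the L-selectin ligand, was as narrow. Its ratios were 1.37, 1.38 and 0.874 (5 weeks), then 0.987, 1.31 and 1.18 (6 weeks), then 0.883, 1 and 0.954 (7 weeks) in RonTK+/+. In RonTK-/- they were 1.08, 0.915 and 1.26 (5 weeks), then 1.24, 1.67 and 1.23 (6 weeks), then 0.827, 0.803 and 0.739 (7 weeks). The upper median was 1.25 and the lower median 0.879, with a separation of 0.019 (log2). For Chst4 and Madcam1 the lack of overlap therefore rests on a gap far smaller than the spread within either set.

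**Figure D1:**
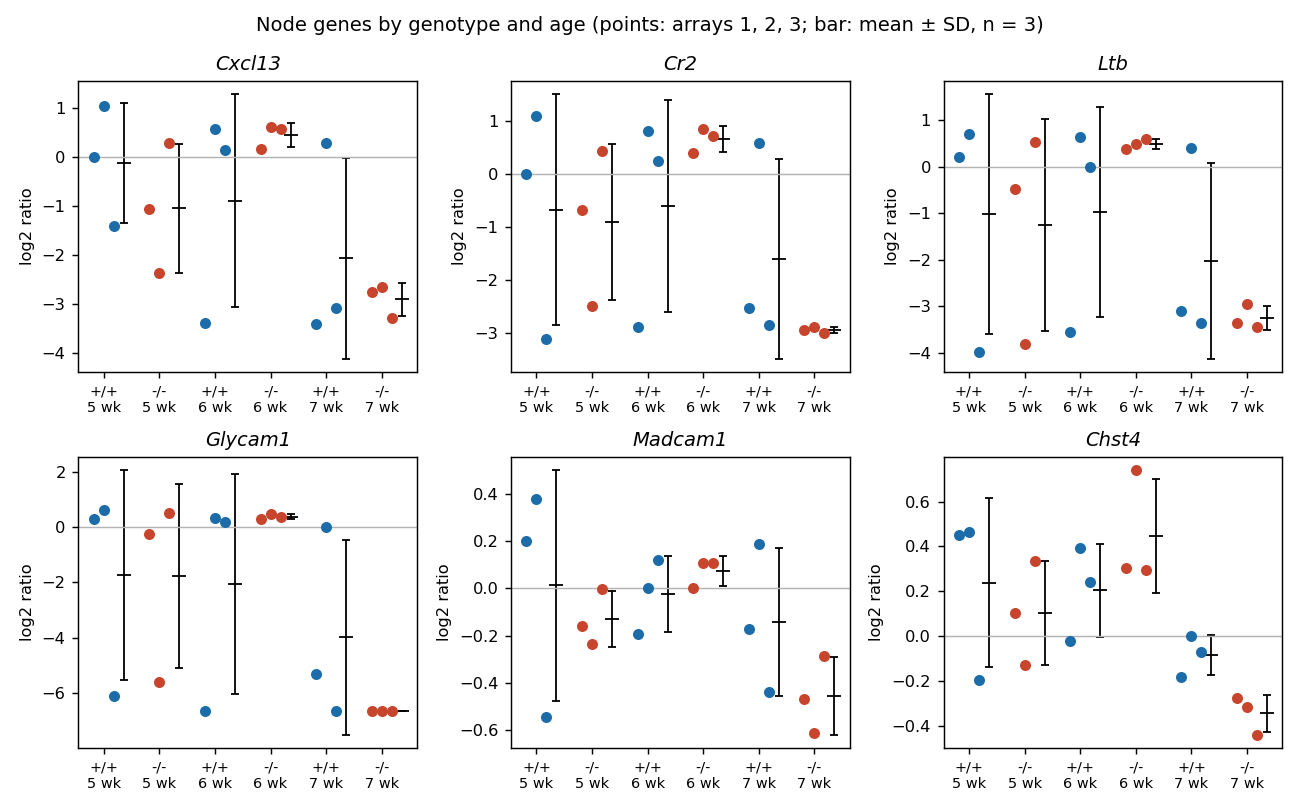
Log2 ratio of the 6 measured members in each group, RonTK+/+ in blue and RonTK-/- in red, with points for arrays 1 to 3 and a bar for the mean ± SD (n = 3). Cxcl13, Cr2, Ltb and Glycam1 split within most groups into high and low arrays, while all 3 RonTK-/- arrays are high at 6 weeks and low at 7 weeks; the vertical scales differ between panels.

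Set against the whole array, the members ranged from the most separated gene to barely separated ones. Ranked by the gap between the lowest upper and the highest lower array, Glycam1 was at rank 1, Ltb at 15, Cr2 at 33, Cxcl13 at 278, Chst4 at 715 and Madcam1 at 726. A gap over 1 (log2) was seen in 83 genes and a gap over 2 in 26. After quantile normalization of the arrays, 3 of the 6 members still did not overlap, namely Ltb, Glycam1 and Chst4, beside 549 genes (3.02%). The array that closed the gaps of Cr2, Cxcl13 and Madcam1 was RonTK-/- array 1 at 5 weeks. Before normalization its SD over all probe sets was 0.19 (log2), and that of RonTK+/+ array 1 at 5 weeks was 0.13, against 0.31 to 0.45 on the other arrays. Quantile normalization gives all arrays the same spread, and moved Cr2 on that RonTK-/- array from -0.68 to -2.89.

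**Figure D2:**
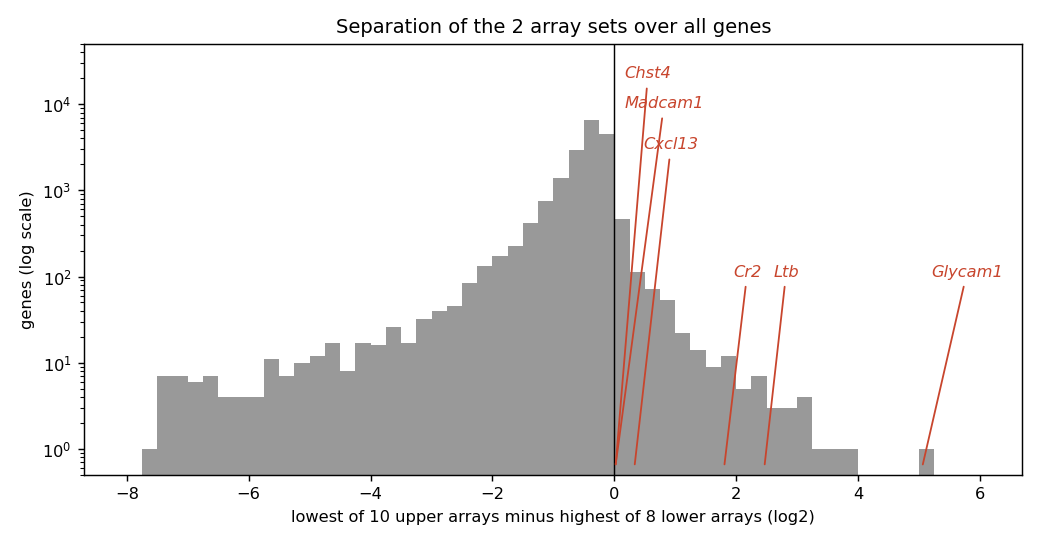
Number of genes (log axis) by the gap between the lowest of the 10 upper arrays and the highest of the 8 lower arrays, in log2; values right of the line at 0 mean no overlap. Glycam1 stands at the far right at 5.05, Ltb at 2.46 and Cr2 at 1.80, while Cxcl13, Chst4 and Madcam1 lie close to 0.

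Within the upper set the members other than Chst4 shared their highest and lowest arrays. RonTK+/+ array 2 at 5 weeks was the highest array for 5 of the 6 members, and RonTK-/- array 1 at 5 weeks was the lowest for 5. Over all 18 arrays, pairs of members correlated at r = 0.79 to 0.99, values that include the step between the sets. Inside the 10 upper arrays the closest pair was Cr2 and Cxcl13 (r = 0.98), followed by Ltb and Cxcl13 (r = 0.94) and Cr2 and Ltb (r = 0.93), whereas Chst4 and Madcam1 were at r = 0.28. Inside the 8 lower arrays the members did not vary together. Pairs without Glycam1 ran there from r = -0.62 (Cxcl13 and Ltb) to 0.59 (Cr2 and Madcam1). These pair values are descriptions over the same arrays and carry no p.

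**Figure D3:**
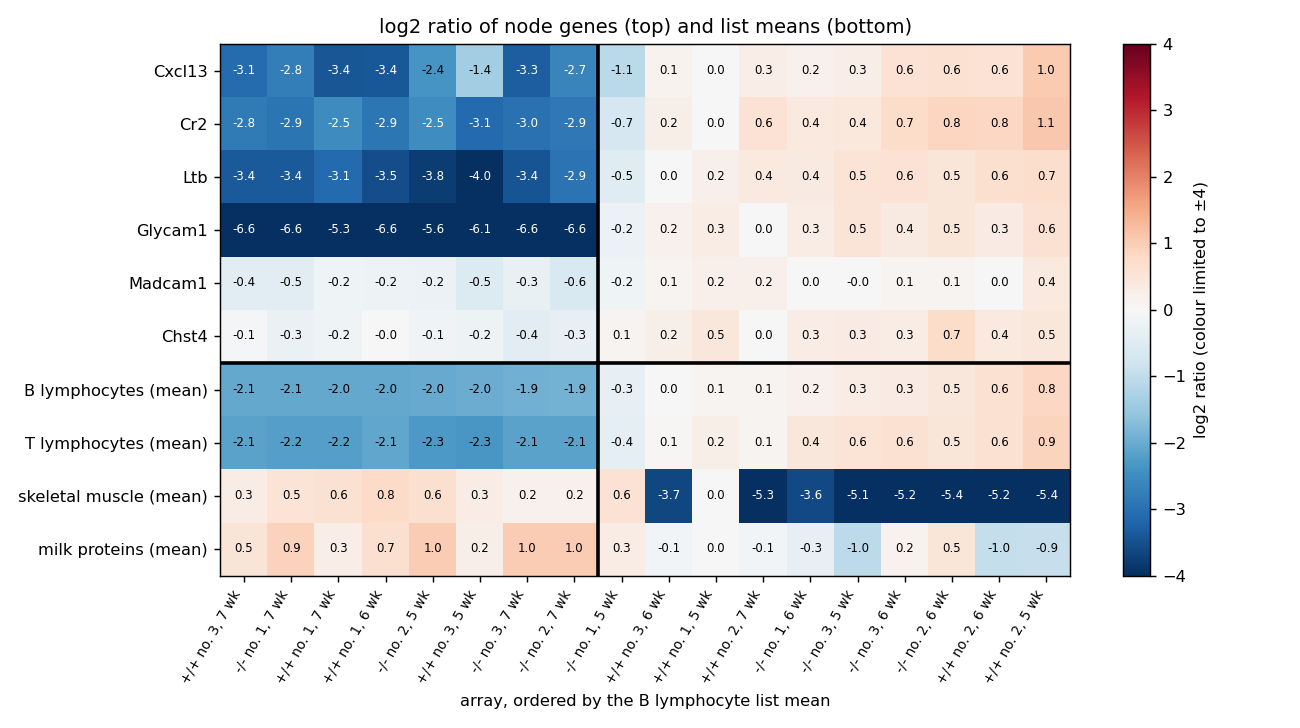
Log2 ratio of the members (top rows) and mean log2 ratio of 4 gene lists (bottom rows) on each of the 18 arrays, ordered by the B lymphocyte mean, with colour limited to 4 either way and a line between the sets. Glycam1, Ltb, Cr2 and Cxcl13 drop at the line with both lymphocyte lists, the muscle mean is high on all 8 lower arrays and on the 2 upper arrays numbered 1 at 5 weeks, and the milk mean does not follow Glycam1.

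The level of 4 members followed the lymphocyte lists inside the upper set. How many of all genes follow these lists as closely there was not computed, so this count does not set the members apart. In the family of 39 relations tested, p-values come from permutation of arrays (100000 resamples for 10 arrays, exact below that) and were adjusted by Benjamini-Hochberg. Cxcl13 followed the B list at r = 0.93 (permutation p = 0.00011, adjusted 0.00143) and rho = 0.94 (permutation p = 0.00019, adjusted 0.00247). Cr2 did so at r = 0.92 (permutation p = 0.00019, adjusted 0.00148) and rho = 0.94 (permutation p = 0.00028, adjusted 0.00273). Without the 2 arrays farthest from the median of the list, r was 0.85 and 0.80.

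Ltb and Glycam1 were closest to the T list. Ltb was at r = 0.94 (permutation p = 0.00011, adjusted 0.00143) and rho = 0.95 (permutation p = 1e-04, adjusted 0.00234), and at r = 0.85 without the 2 farthest arrays. Glycam1 was at r = 0.94 (permutation p = 0.00016, adjusted 0.00148) and rho = 0.88 (permutation p = 0.00173, adjusted 0.0135), and at r = 0.81 without them. The same 4 members also passed with the other lymphocyte list, at r = 0.86 to 0.91, and kept r = 0.59 to 0.81 without the 2 farthest arrays. Glycam1 is not a lymphocyte gene, whereas Ltb and Cr2 are also expressed by lymphocytes themselves.

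Chst4 and Madcam1 did not pass with either list. Chst4 was at r = 0.61 and rho = 0.67 with the B list (permutation p = 0.0577 and 0.0386, adjusted 0.186 and 0.137). Madcam1 was at r = 0.59 and rho = 0.16 (permutation p = 0.0731 and 0.655, adjusted 0.186 and 0.886), and its r turned to -0.53 without the 2 farthest arrays, so that value rests on them. Inside the 8 lower arrays none of 5 relations with the B list and none of 5 with the T list passed. The nearest was Cxcl13 with the T list at r = -0.81 and rho = -0.57 (exact permutation p = 0.0129 and 0.151, adjusted 0.0504 and 0.421). Glycam1 was left out there because most of those arrays read the floor.

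**Figure D4:**
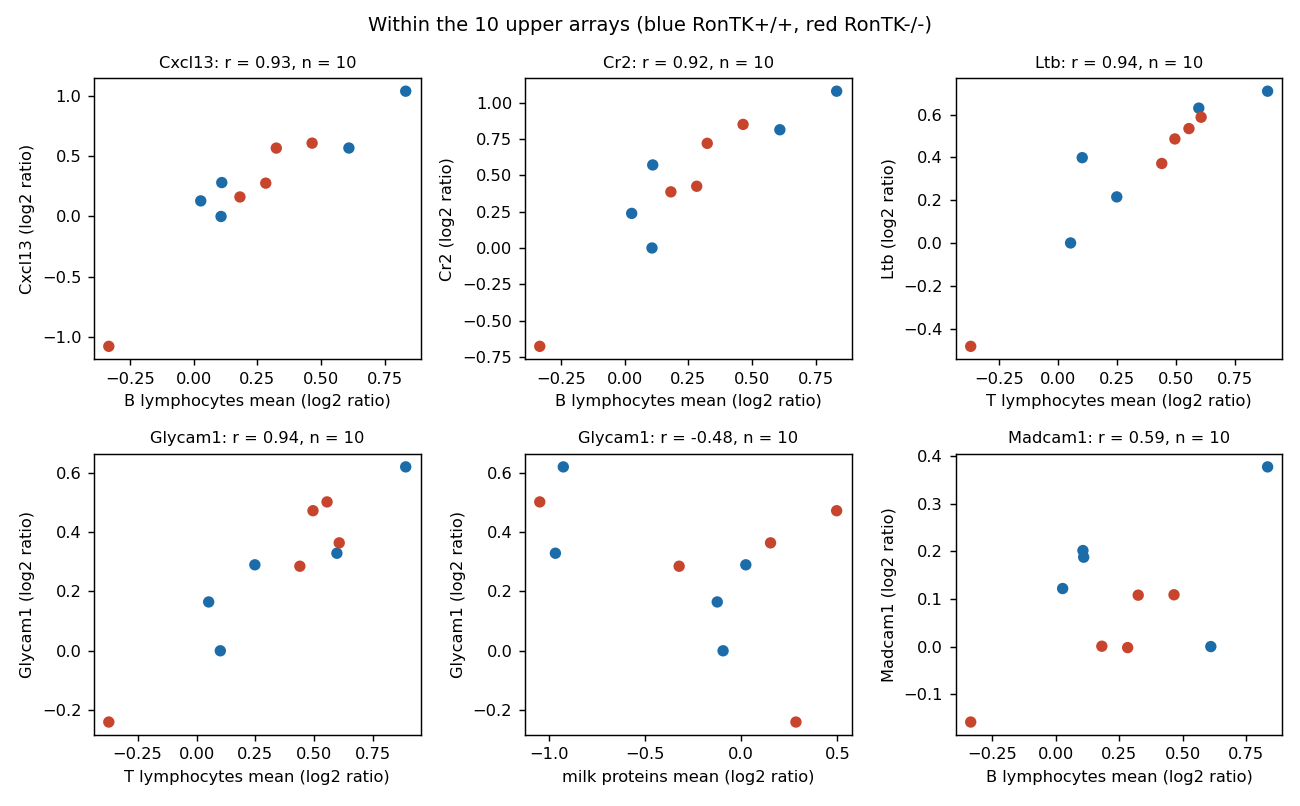
Log2 ratio of a member against the mean log2 ratio of a gene list on the 10 upper arrays, RonTK+/+ in blue and RonTK-/- in red. Cxcl13 and Cr2 rise with the B list and Ltb and Glycam1 with the T list, Glycam1 does not rise with the milk list (r = -0.48), and RonTK-/- array 1 at 5 weeks is the lowest point in each panel.

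Glycam1 was also set against the milk protein list, since lactating epithelium makes it. The milk list (17 of 18 measured) ranged from -1.05 to 0.50 (log2) over the upper arrays and from 0.24 to 1.03 over the lower arrays, where Glycam1 was at or near its floor. In the upper set Glycam1 was at r = -0.48 and rho = -0.35 with the milk list (permutation p = 0.161 and 0.331, adjusted 0.315 and 0.615), and at r = -0.41 without the 2 farthest arrays. None of the 6 members passed with the milk list in the upper set and none of 5 in the lower set. A value over all 18 arrays is not given, because the members fall into the 2 sets.

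Skeletal muscle transcripts moved with the sets as well. All 20 measured genes of the muscle list ran opposite to the members over the 18 arrays, at r = -0.89 to -0.81 with the member mean described below. The list mean was -5.45 to -3.61 (log2) on 8 upper arrays and 0.01 to 0.76 on the other 10, which were all 8 lower arrays and array 1 at 5 weeks of each genotype. On those upper arrays with high muscle transcripts, Glycam1 read 1.22 and 0.847, Ltb 1.16 and 0.715, and Cr2 1 and 0.626. Cxcl13 read 1 and 0.475, Chst4 1.37 and 1.08, and Madcam1 1.15 and 0.896. Without this pair of arrays, all 6 members still did not overlap between the sets, against 7.02% of genes. Within the 8 arrays low in muscle transcripts, Cr2 was at r = -0.77 and rho = -0.88 with the muscle list (exact permutation p = 0.00642 and 0.00724, adjusted 0.0278 and 0.0292), and at r = -0.70 without the 2 farthest arrays. The other 5 members were at r = -0.77 to -0.28 and did not pass by r, while Cxcl13 passed by rho (-0.88, exact permutation p = 0.00724, adjusted 0.0292). Several muscle genes, among them Tnnt3 and Acta1, reached the floor within these arrays, so the list mean there is partly limited by it.

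Among the 10 genes most like the members over the 18 arrays, 6 were in the lymphocyte or homing lists and 4 (Gimap3, Rassf5, Sh2d1a and Gpr174) were in no list. Likeness was the Pearson correlation with the mean log2 ratio of Cxcl13, Cr2, Ltb, Madcam1 and Chst4, a mean that leans on the first 3 because they vary most. In this ranking and in that for Glycam1, predicted, RIKEN and clone-named genes were passed over. The 10 highest were Cd3d and Cd8b1 (T cell receptor complex and CD8 co-receptor), Ms4a1, Cd79b and Pou2af1 (B cell surface proteins and co-activator), Ccr7 (the receptor for CCL19 and CCL21), Sh2d1a, Gimap3, Rassf5 and Gpr174. Their r ran from 0.993 for Gpr174 to 0.995 for Cd3d. For Glycam1 alone the 5 highest were Cd3d (r = 0.988), Ms4a1, Gbp8, Gimap3 and Cd8b1 (r = 0.985). The order among them carries little, because 326 genes lay above r = 0.95 with the member mean and 167 with Glycam1, and rank correlation kept 1 of the 10 and 0 of the 5, and quantile normalization 4 of the 10 and 0 of the 5.

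Other genes of the node programme separated unevenly. Of 9 measured homing chemokines and receptors, 6 did not overlap between the sets, each higher in the upper set, against 4.32% of all genes. These were the receptors Ccr7, Ccr6 and Cxcr5 and the integrin chains Itgal, Itga4 and Itgb7, which lymphocytes carry. The sets were drawn from lymphocyte genes, so their separation says nothing about stroma. The largest difference of medians was that of Ccr7, at 3.18 (log2), then Ccr6 at 2.10, while Cxcr5, the receptor for CXCL13 on B cells, differed by 1.78 and Itgal, a chain of the integrin LFA-1, by 1.86. S1pr1, Cxcr4 and the chemokine Cxcl12 (median difference 0.24) overlapped. The median r of the list with the member mean was 0.98, beside -0.09 over all genes.

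Of 11 measured genes of follicular dendritic and reticular cells, 5 did not overlap (45.5%, against 4.32% of all genes), each higher in the upper set. The sets were drawn from B lymphocyte genes, and whether this separation comes from stromal cells was not tested. The 5 genes were Fcer2a (median difference 1.51), Bst1 (1.59), Il7 (0.91), Clu (1.28) and Vcam1 (0.90), and Fcer2a is also in the B list. Tnfsf13b, the B cell survival factor BAFF, overlapped by a narrow margin. Mfge8 and Pdpn, which follicular dendritic and reticular cells also make, were at r = 0.05 and r = -0.38 with the member mean.

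In the lymphotoxin pathway 1 of 12 measured genes (8.33%, against 4.32% of all genes) did not overlap, a single gene and so no result about the pathway. It was Lta, the partner subunit of Ltb, with a median difference of 0.83. Among the other signalling genes Relb was at r = 0.82, Map3k14, the kinase NIK, at r = 0.81 and Tnfsf14, the ligand LIGHT, at r = 0.78. The receptor Ltbr was at r = -0.35 and had upper and lower medians of 0.05 and 0.12 (log2).

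High endothelial venule glycans and addressins split in both directions. Of 13 measured genes, 2 did not overlap (15.4%, against 4.32% of all genes). They were Fut7, a fucosyltransferase of the L-selectin ligand (r = 0.91), and Chst2, a sulphotransferase (r = 0.89), with small median differences of 0.45 and 0.22. For Chst2 the lowest upper array was at 0.0014 and the highest lower array at -0.030 (log2). A count of 2 genes is no result about the list. Fut4 and Gcnt1 were at r = 0.86 and 0.64. In the other direction Selp, Sele and Ackr1, adhesion molecules and a chemokine-binding protein of venules, were at r = -0.73, -0.68 and -0.63. The median r of the list was -0.17, and its list mean spanned -0.08 to 0.16 (log2) over the upper and -0.21 to 0.33 over the lower arrays.

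The remaining lists describe the other cells a gland sample could hold. All 14 measured T lymphocyte genes and 13 of 15 B lymphocyte genes did not overlap, and the B list had itself drawn the sets. Lymphatic endothelium had 1 of 9 (Stab2), macrophages 1 of 14 (Marco) and plasma cells 1 of 8 (Mzb1), single genes beside 4.32% of all genes. The median r with the member mean was 0.32, 0.28 and 0.09 in these 3 lists. Blood endothelium, milk proteins, luminal and basal epithelium, white and brown adipocytes, and epidermis had none with the upper set higher. The part of lymphocyte, muscle or milk transcripts in the member values was not tested beyond the values given here.

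**Figure D5:**
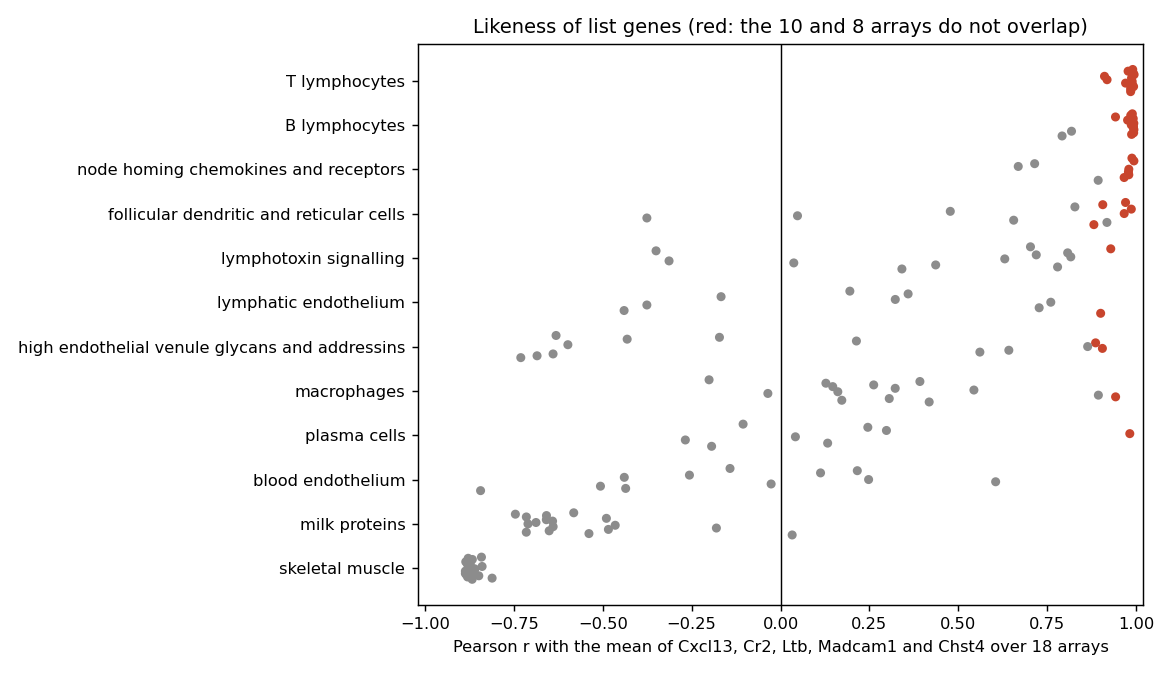
Pearson r over 18 arrays of each list gene with the mean of Cxcl13, Cr2, Ltb, Madcam1 and Chst4, 1 row per list and 1 point per gene, red where the upper and lower arrays do not overlap. T and B lymphocyte genes crowd near 1, venule genes spread from -0.73 to 0.91, and all muscle genes lie below -0.80.

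No member was called for genotype by the limma test, fitted on all 18 arrays and adjusted by Benjamini-Hochberg over 18193 genes. Over the 3 ages RonTK-/- minus RonTK+/+ ran from -0.14 ± 0.63 (SE) for Cxcl13 to -0.00 ± 0.83 for Ltb on the log2 scale. None of the 6 members was called and none had an unadjusted p under 0.05, while 0.0605% of all genes were called. At 5 weeks the differences were -0.93 to -0.05 and none was called or passed unadjusted, beside 0.011% of genes. The SE for Glycam1 was 2.26 at each age, because the fit pools the spread of all groups. Its SD was 3.33 to 3.98 in the 4 groups that held both upper and lower arrays.

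At 6 weeks all 6 members were higher on average in RonTK-/-, whose 3 arrays were all upper, against 2 of 3 for RonTK+/+. The differences ran from 0.10 ± 0.20 for Madcam1 to 2.42 ± 2.26 for Glycam1, with limma adjusted p = 0.850 to 0.913. None was called or passed unadjusted, beside 0.0165% of genes called. The size for Glycam1 depends on the floor value of RonTK+/+ array 1, and without that array the 6 differences ran from 0.012 for Madcam1 to 0.17 for Ltb, with Glycam1 at 0.13. At 7 weeks all 6 were lower on average in RonTK-/-, with 0 of 3 upper arrays against 1 of 3. The differences ran from -2.67 ± 2.26 for Glycam1, whose RonTK-/- arrays were all at the floor, to -0.26 ± 0.18 for Chst4, with limma adjusted p = 0.656 to 0.835. None was called or passed unadjusted, beside 0.033% of genes. Without RonTK+/+ array 2, the upper array of that age, Glycam1 was at -0.68, Cr2 at -0.25, Ltb at -0.013, Madcam1 at -0.15 and Chst4 at -0.22, and Cxcl13 turned to 0.35. Chst4 and Cr2 did not overlap between the genotypes at 7 weeks, as did 3.35% of all genes with RonTK-/- lower. The genotype by age interaction called none of the members (limma adjusted p = 0.697 to 0.763, none under 0.05 unadjusted) and 0% of genes, with 6.82% of genes under 0.05 unadjusted.

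Change with age was tested in each genotype with the moderated F statistic of limma. In RonTK+/+ none of the 6 members was called or passed unadjusted (adjusted p = 0.757 to 0.946), beside 0.104% of genes called. In RonTK-/- none was called (adjusted p = 0.164 to 0.294), beside 0.0385% of genes, and 4 of 6 had an unadjusted p under 0.05, as did 17.5% of genes. The lowest was Chst4 (unadjusted p = 0.0021, limma adjusted p = 0.164).

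The RonTK-/- arrays at 6 and 7 weeks were also compared directly, a comparison chosen after these values had been seen. All 6 members were higher in every 6-week than in every 7-week array, as were 16.7% of genes. The 7-week minus 6-week difference (log2 ± SE, 3 arrays each) was -3.73 ± 1.43 for Ltb, -3.58 ± 1.18 for Cr2, -3.34 ± 1.08 for Cxcl13, -0.79 ± 0.18 for Chst4 and -0.53 ± 0.20 for Madcam1. Glycam1 fell from a mean of 0.37 to the floor. None was called (limma adjusted p = 0.126 to 0.173), nor was any of the 18193 genes (0%), though 22.6% had an unadjusted p under 0.05. Age and array set cannot be told apart in this contrast, since the 6-week arrays were all upper and the 7-week arrays all lower.

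Ordered by mean, RonTK-/- at 6 weeks was the highest group and RonTK-/- at 7 weeks the lowest for all 6 members. Their means ± SD (log2, n = 3) were 0.65 ± 0.24 and -2.93 ± 0.06 for Cr2, 0.48 ± 0.11 and -3.25 ± 0.27 for Ltb, and 0.44 ± 0.25 and -2.90 ± 0.34 for Cxcl13. The 4 groups between them had wide spreads, for instance -0.61 ± 1.99 for Cr2 in RonTK+/+ at 6 weeks, and neighbours in the order overlapped for every member except RonTK+/+ and RonTK-/- at 7 weeks for Chst4 and Cr2. Each of the 5 groups other than RonTK-/- at 6 weeks held at least 1 lower array, and RonTK+/+ at 7 weeks, with 1 upper array, was next to last in the order for all 6 members.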

How the data were processed

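The deposited values are ratios in 1 table of 18 Affymetrix mouse arrays. The unit was read from the deposited values, since the labels name none. Per the labels' protocols, fat was spun out before RNA extraction, and the RNA went through 1 round of amplification. The sources used here do not give the probe set summary, software or scan dates.

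Ratios were tested as log2 values, without a pseudocount or a filter on dim probe sets. The platform annotation gave 34945 probe sets 1 symbol, 932 several and 9160 none, with 64 controls left out. Of those with 1 symbol, 34741 matched RefSeq (GRCm38.p6), which changed 0 symbols. A gene is the mean of its probe sets with 1 symbol. A model with 6 group means was fitted with limma 3.58.1 (R 4.3.3; 12 residual and 1.94 prior degrees of freedom), two-sided, with adjusted p under 0.05 as the threshold for a call. The fit was tested on simulated data. Correlations used scipy 1.17.1, and figures matplotlib 3.10.9.

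The members and lists were chosen with earlier results of these data known. All members are named; from lists, up to 4 genes with the highest likeness were to be named, and others named were chosen after their values were seen. Correlations with milk genes, planned over 18 arrays, were run within the array sets. Alternatives were quantile normalization, median centring, array weights (gene by gene), a replicate block, lymphocyte and muscle covariates, fits on the compared groups alone, single probe sets, other thresholds and each array left out.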

Additional observations from a re-analysis of the deposited data

How the results depend on the processing

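Of 1441 recomputed values, 1364 were counted as unchanged, which does not mean that each kept its value or its sign. Correlations that changed sign without the farthest arrays, given below, were not counted as reversed, and they have no adjusted p. No member was called in any comparison under any setting except array weights, under which 6 of 6 were called for the age change in RonTK-/- (lowest limma adjusted p 0.00948, range over all settings 0.00948 to 0.464) and 6 of 6 for 7 minus 6 weeks in RonTK-/- (0.00897, range 0.00897 to 0.842). Those weights called 5357 genes for that age change, against 7 as reported and 0 to 30 under the other settings, and gave RonTK-/- array 1 at 5 weeks the largest weight, 4.22. Quantile normalization left 3 members without overlap between the array sets, against 6.

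The replicate block called 0 members in every comparison. Same-numbered arrays deviated together at a median r of 0.11 (-0.83 to 0.87), and 7 of 18 arrays correlated best with their own number, so the numbers were not taken as pairs. Over the settings, genes called ranged from 1 to 41 for genotype over the ages (11 as reported), 0 to 10 at 5 weeks (2), 0 to 10 at 6 weeks (3), 0 to 886 at 7 weeks (6), 0 to 122 for the interaction (0), 0 to 592 for age in RonTK+/+ (19) and 0 to 5357 for age in RonTK-/- (7). The 41, 886 and 122 came without RonTK+/+ array 3 at 7 weeks.

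Reversed log2 differences, none of them called, were as follows, and their causes were not tested. With the B lymphocyte covariate, genotype over the ages became 0.064 for Glycam1 and 0.10 for Ltb. At 5 weeks it became 0.25 for Cr2, 0.87 for Glycam1 and 0.35 for Ltb, and at 6 weeks -0.058 for Madcam1. The age change in RonTK+/+ became 0.49 for Cr2, 0.42 for Glycam1, 0.70 for Ltb and 0.040 for Madcam1. For Ltb in RonTK-/- the age change became 0.21, and 7 minus 6 weeks 0.21. With the muscle covariate Ltb became 0.017 over the ages, Glycam1 0.30 at 5 weeks, Madcam1 -0.039 at 6 weeks and Cxcl13 0.024 at 7 weeks. Without both arrays 1 at 5 weeks, Ltb became 0.074 over the ages and Glycam1 0.19 at 5 weeks. By Spearman, Ltb with B (-0.10), Cr2 with T (0.12) and Cxcl13 with milk (0.048) reversed in the lower set, and Chst4 (-0.10) and Madcam1 (0.079) with milk in the upper. Without the 2 farthest arrays, r of Madcam1 in the upper set turned to -0.53 with B and -0.67 with T. In the lower set Ltb turned to -0.90 with B and -0.32 with T, and Cxcl13 to 0.52 with milk. On the arrays low in muscle transcripts, Ltb turned to 0.032 with muscle.

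Leaving out 1 array at a time, the differences that changed sign in some fit are given first. Genotype over the ages ranged from -0.51 to 0.26 for Cr2, -0.55 to 0.25 for Cxcl13, -0.86 to 0.57 for Glycam1 and -0.50 to 0.42 for Ltb. At 5 weeks it ranged from -1.45 to 0.64 for Cr2, -2.23 to 1.86 for Glycam1, -1.72 to 1.04 for Ltb and -0.42 to 0.039 for Madcam1, and at 7 weeks from -1.50 to 0.35 for Cxcl13. The age change of Madcam1 in RonTK+/+ ranged from -0.43 to 0.029. Glycam1, without a change of sign, ranged from 0.13 to 3.61 at 6 weeks and from -3.998 to -0.68 at 7 weeks. Signal over background is not known, which limits Glycam1 at its floor and the narrow ranges of Madcam1 and Chst4.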
